A study of Arabidopsis thaliana with 4 samples.

Results

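Indole glucosinolate synthesis was examined in Arabidopsis thaliana callus through 10 genes, 7 encoding enzymes (CYP79B2, CYP79B3, CYP83B1, SUR1, UGT74B1, SOT16 and CYP81F4) and 3 encoding R2R3 MYB transcription factors (MYB34, MYB51 and MYB122). They were taken by locus code from a table of read counts for 23922 loci. All 10 had a row and 9 passed the filter on low counts; MYB122, with 1 read over all libraries together, did not. They were selected on the read counts of these same 4 libraries, in that fold changes of this comparison were known when the list was drawn up. The differences of the 10 genes are therefore a description, and their number is no independent evidence about the pathway.

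The libraries, 2 per label, were labelled plt1 plt2, a double mutant in the PLETHORA genes PLT1 and PLT2 that encode AP2-type factors of root stem cell maintenance, and wild type, accession Col-0. Both kinds of callus came from hypocotyl pieces of about 1 cm, cut from seedlings grown for 9 days in darkness and kept in continuous light at 22 °C for 5 to 6 days on callus induction medium. The medium held 2% sucrose, the cytokinin kinetin at 0.2 µM and the auxin 2,4-D at 11 µM, and about 100 calli were pooled for each RNA sample. The labels give an accession for the wild type alone and name no mutant alleles, so the mutations and any other difference between the lines cannot be told apart. Whether samples of a label were grown as separate cultures is not stated, and the p-values cover only the variation between these libraries, possibly technical.

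Indole glucosinolates are sulfur-rich defence compounds made from tryptophan. CYP79B2 and CYP79B3 turn tryptophan into indole-3-acetaldoxime, which is also a precursor of the phytoalexin camalexin and can feed auxin synthesis. CYP83B1 oxidises the aldoxime and so commits it to glucosinolates, glutathione is then attached and trimmed, the C-S lyase SUR1 releases a thiohydroximate, UGT74B1 adds glucose and the sulfotransferase SOT16 completes the core molecule. CYP81F enzymes hydroxylate its indole ring, CYP81F4 at the nitrogen. MYB34, MYB51 and MYB122 activate the pathway, and mutants in CYP83B1 or SUR1 are known for an excess of auxin.

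Library totals ranged from 53907649 to 63209401 reads, and libraries of the same label differed less from each other (chi-square per degree of freedom of 5.20 to 7.50) than libraries of different labels (20.23 to 24.52). PLT1 had 122 and 128 CPM (reads scaled to a common library size) in the libraries labelled plt1 plt2, against 171 and 166 CPM in those labelled wild type. PLT2 had 182 and 179 CPM in the libraries labelled plt1 plt2, against 63.0 and 62.1 CPM in those labelled wild type, 2.88-fold higher where the label names PLT2 as mutated. A disrupted gene can still be transcribed and counts do not show where in a gene reads lie, so the libraries are called by their labels, on which every direction here rests. All 7 markers of callus as a root primordium-like tissue were detected (LBD16, LBD17, LBD18, LBD29, WOX5, SCR and SHR; summed 875 and 811 CPM in the libraries labelled plt1 plt2, 852 and 841 CPM in those labelled wild type), with LBD16, LBD17, LBD18 and WOX5 called higher (log2 fold changes of 0.19 to 0.49) and SCR lower (-0.37). Green tissue markers summed to 3.83 to 4.89 CPM in every library, and the 2 myrosin cell markers with a row to at most 0.915 CPM.

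The promoters are shown first, since members that were lower together can be compared in sequence. The windows run from 250 bases before to 50 bases after the annotated start and are given 5′ to 3′ on the strand of the gene, from the RefSeq TAIR10.1 genome and annotation. Capitals mark the hexamers ACCAAC and ACCTAC, both AC elements of the kind that R2R3 MYB factors bind, on either strand (GTTGGT is ACCAAC on the other strand). CYP79B2, CYP79B3, CYP83B1 and SOT16 are shown as enzyme genes with ACCAAC that were lower in the libraries labelled plt1 plt2, UGT74B1 as one with ACCAAC that was not called, and MYB34 as the member with no read in those libraries.
CYP79B2 (chr4:18524792-18525091, plus strand): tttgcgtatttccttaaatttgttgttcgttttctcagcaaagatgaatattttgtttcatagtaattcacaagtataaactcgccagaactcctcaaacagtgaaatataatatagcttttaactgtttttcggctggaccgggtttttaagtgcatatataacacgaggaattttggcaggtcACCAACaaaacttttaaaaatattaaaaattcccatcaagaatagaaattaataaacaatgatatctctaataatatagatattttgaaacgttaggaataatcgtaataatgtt
CYP79B3 (chr2:9488163-9488462, plus strand): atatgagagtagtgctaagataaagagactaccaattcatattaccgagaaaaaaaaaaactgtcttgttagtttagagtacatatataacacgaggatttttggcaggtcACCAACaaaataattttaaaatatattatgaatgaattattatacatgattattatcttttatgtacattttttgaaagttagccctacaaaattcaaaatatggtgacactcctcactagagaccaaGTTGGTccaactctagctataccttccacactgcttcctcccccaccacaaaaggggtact
CYP83B1 (chr4:15275355-15275654, minus strand): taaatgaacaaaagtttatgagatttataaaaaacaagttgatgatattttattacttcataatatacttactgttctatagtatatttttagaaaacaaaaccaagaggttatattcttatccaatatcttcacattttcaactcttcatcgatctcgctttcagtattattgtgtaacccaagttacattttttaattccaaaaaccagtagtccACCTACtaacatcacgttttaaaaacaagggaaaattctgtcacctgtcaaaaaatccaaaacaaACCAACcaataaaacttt
SOT16 (chr1:27865645-27865944, minus strand): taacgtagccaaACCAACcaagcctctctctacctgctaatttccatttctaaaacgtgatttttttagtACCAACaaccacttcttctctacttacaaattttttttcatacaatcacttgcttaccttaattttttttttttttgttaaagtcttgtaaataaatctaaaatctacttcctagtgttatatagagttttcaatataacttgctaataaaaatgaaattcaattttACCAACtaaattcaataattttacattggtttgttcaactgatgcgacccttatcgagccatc
UGT74B1 (chr1:8527038-8527337, minus strand): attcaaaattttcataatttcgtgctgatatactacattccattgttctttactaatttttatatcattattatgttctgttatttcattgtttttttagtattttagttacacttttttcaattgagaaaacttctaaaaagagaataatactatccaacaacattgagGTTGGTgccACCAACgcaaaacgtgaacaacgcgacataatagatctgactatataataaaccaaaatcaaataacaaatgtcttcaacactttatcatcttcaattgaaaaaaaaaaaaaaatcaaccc
MYB34 (chr5:24494041-24494340, plus strand): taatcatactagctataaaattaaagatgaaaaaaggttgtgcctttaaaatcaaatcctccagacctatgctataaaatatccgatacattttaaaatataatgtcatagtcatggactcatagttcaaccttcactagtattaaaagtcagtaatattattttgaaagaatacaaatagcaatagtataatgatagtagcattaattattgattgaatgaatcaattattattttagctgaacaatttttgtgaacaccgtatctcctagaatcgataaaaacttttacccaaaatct

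ACCAAC was found in 5 of the 10 windows, those of CYP79B2 (position -65 from the start), CYP79B3 (-139 and -11), CYP83B1 (33 bases after it), UGT74B1 (-80 and -71) and SOT16 (-238, -180 and -13). Of 22280 promoters of protein-coding genes with a row, 13.9% held it. All 5 belong to enzyme genes, and no window of the 3 MYB genes held it. The windows of SUR1 and CYP81F4, which were also lower and are not printed here, did not hold it either. Of the further pathway lists described below, ACCAAC lay in 6 of 11 tryptophan supply windows and 5 of 15 aliphatic ones. It lay in 2 of 13 windows of other indole glucosinolate enzymes and 1 of 7 of partner regulators. Transport and breakdown had 1 of 16, and other aldoxime branches 1 of 11. ACCTAC was found once, in CYP83B1 at -33 (5.44% of all promoters). The palindromic G-box CACGTG, a hexamer bound by bHLH factors of the MYC group, was found in SUR1 at -50 and in MYB122 17 bases after the start (8.40% of all promoters). The auxin response elements TGTCTC (14.0% of all promoters) and TGTCGG (5.44%) and the W-box TTGACC (14.3%) matched none of the 10 windows. These matches say only which letters lie in the windows, on either strand.

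**Figure D1:**
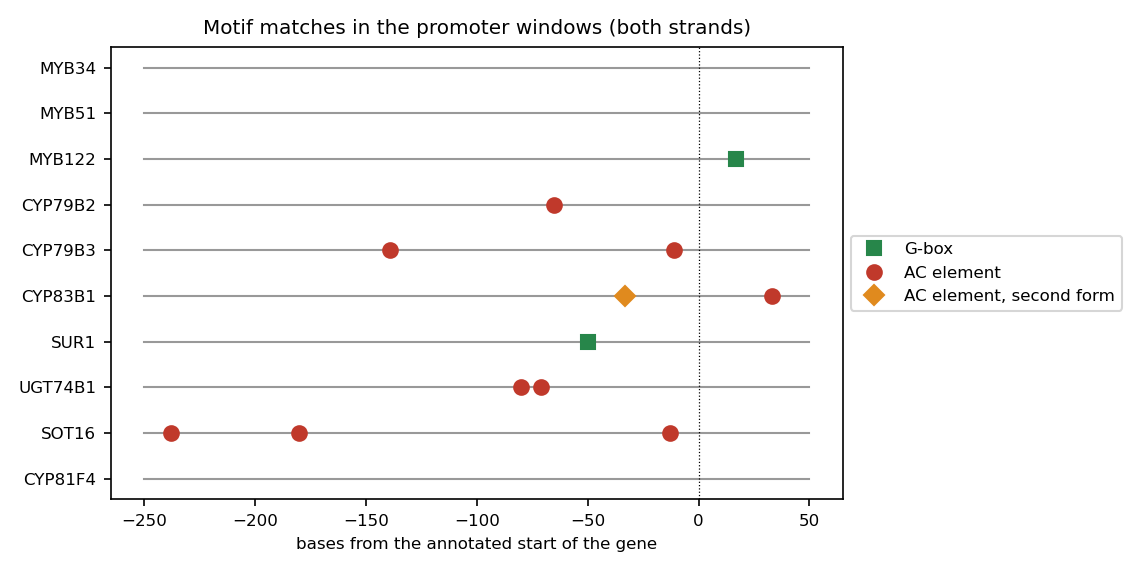
Positions of motif matches on both strands (symbols) in the promoter windows of the 10 genes, in bases from the annotated start of each gene (dotted line). ACCAAC (AC element) lies in 5 windows, all of enzyme genes, with 3 matches in SOT16.

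The ACCAAC nearest the 5′ end of the CYP79B3 window and that of CYP79B2 lie in the same stretch. It is printed because it is the longest run that any pair of the 10 windows shared on the same strand with at most 1 mismatch, and capitals mark ACCAAC.
CYP79B2 (chr4:18524947-18524986, plus strand): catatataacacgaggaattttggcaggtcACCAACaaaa
CYP79B3 (chr2:9488244-9488283, plus strand): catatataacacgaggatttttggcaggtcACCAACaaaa

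The shared stretch is 40 bases long and spans positions -95 to -56 in CYP79B2 and -169 to -130 in CYP79B3. Counted from 1 at its 5′ end, CYP79B3 differs from CYP79B2 by A18T. The other 44 pairs of windows shared runs of 10 to 18 bases. The exact run of 22 bases within it occurred in 2 of the 22280 promoters, those of this pair. Neither gene had exon bases in matches of 95% identity over 50 bases elsewhere in the genome, and neither did the other 8 members, so their reads are not expected to be split with near copies.

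Of the 9 tested members, 7 fell and 0 rose in the libraries labelled plt1 plt2 (called at a Benjamini-Hochberg adjusted p below 0.05 over the 19325 genes tested, by the quasi-likelihood test of edgeR). Across all genes tested, 10.5% were called, 5.86% lower and 4.63% higher; the 10 were chosen with this comparison known, so nothing is read from the difference. At an unadjusted p below 0.05 the members numbered 8 lower and 0 higher, and DESeq2 called 6 lower and 0 higher. Both libraries labelled plt1 plt2 lay below both labelled wild type in 8 of the 9, as did 27.7% of all genes tested, while in 27% of all genes tested both lay above. The median log2 fold change of the 9 was -0.47, against 0.00 for all genes tested. MYB34 is the lowest of the 9 also at its bound, so using the bound could not change this median. Without MYB34 the called members were between 1.23-fold and 5.19-fold lower, and 3 passed a test against a fold of 1.5 (0.797% of all genes tested were lower by that test). In bulk callus, fewer cells of a type and less RNA per cell cannot be told apart.

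**Figure D2:**
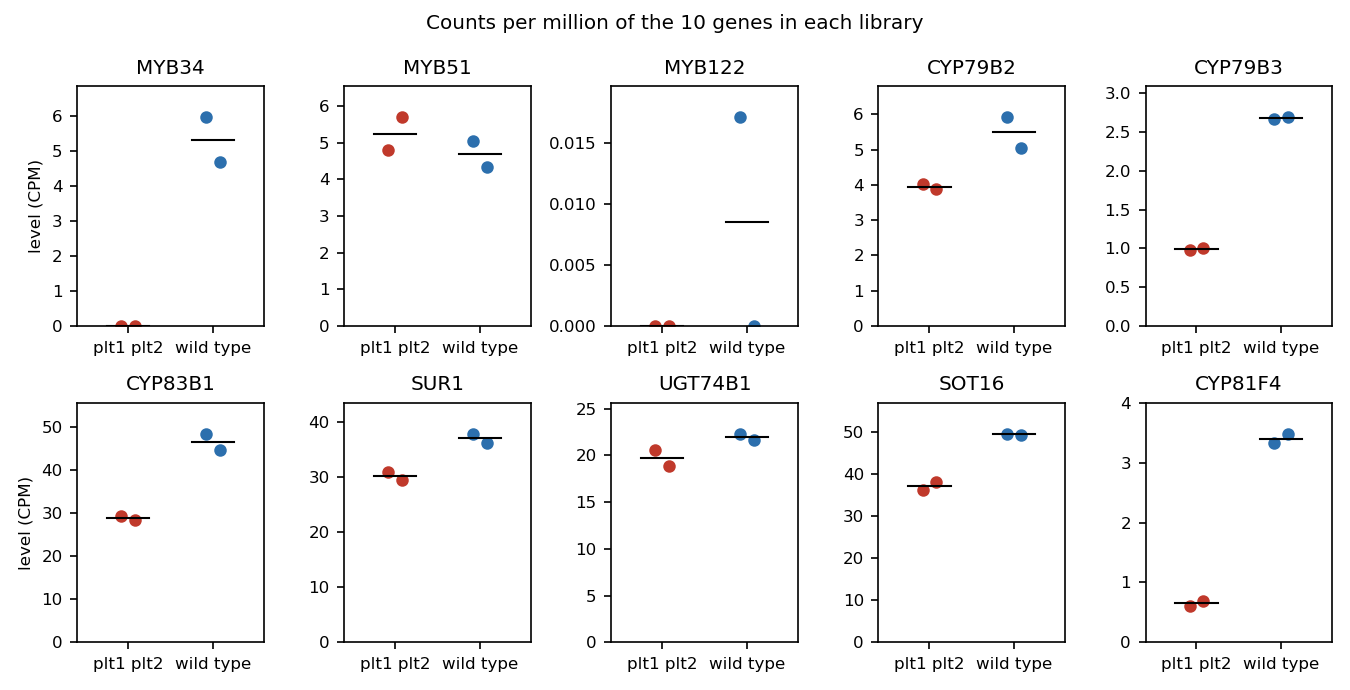
Levels in CPM (reads scaled to a common library size, vertical axes from 0, scaled to each gene) of the 10 genes, with 1 point per library (red, labelled plt1 plt2; blue, labelled wild type) and a line at the mean of each pair. MYB34 is at 0 in both libraries labelled plt1 plt2, MYB51 overlaps between the labels, and MYB122 has 1 read in 1 library.

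Among the regulators, MYB34 (AT5G60890; TAIR10.1 chromosome 5, 24494291 to 24496371, plus strand, 3 exon blocks), an activator of tryptophan and indole glucosinolate genes, had no read (0 and 0) in the libraries labelled plt1 plt2, against 349 and 266 reads in those labelled wild type. That is 0 against 5.97 and 4.68 CPM, at least 210-fold lower with a floor of 3 counts over both libraries (0.0254 CPM, counting error only; edgeR adjusted p = 2.35e-06). The libraries of each label stand apart completely. Among called genes, 13 had no read in either library labelled plt1 plt2, and 0 had none in either labelled wild type. Whether the lines differ in the sequence of MYB34 was not tested. No read in either library labelled plt1 plt2, with 100 or more in each labelled wild type, was found for 3 of the 23922 loci, MYB34, the auxin synthesis gene YUC3 and AT1G06957, of which YUC3 and AT1G06957 lie on chromosome 1.

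MYB51 (AT1G18570; chromosome 1, 6389399 to 6391386, plus strand, 3 exon blocks), which drives the pathway mainly in shoots and under attack, had 4.79 and 5.69 CPM in the libraries labelled plt1 plt2, against 5.03 and 4.33 CPM in those labelled wild type. The labels overlap, and the log2 fold change of 0.16 ± 0.14 (SE) was not called (edgeR adjusted p = 0.527). MYB122 (AT1G74080; chromosome 1, 27855578 to 27857598, plus strand, 3 exon blocks), a minor activator of the pathway, had 0 and 0 reads in the libraries labelled plt1 plt2, against 1 and 0 reads in those labelled wild type. Both labels are under the floor of 3 counts, so a difference was not detectable at this depth.

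Per length, in TPM (reads per exon length, scaled to a common sum), the 3 MYB genes summed to 4.66 and 5.68 in the libraries labelled plt1 plt2, against 10.5 and 8.57 in those labelled wild type. MYB34 made up 0% of that sum in both libraries labelled plt1 plt2, against 54.3% and 52.1% in those labelled wild type. With MYB34 and MYB122 at 0 there, MYB51 made up the whole sum in the libraries labelled plt1 plt2, at about its own level under the other label.

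At the entry of the pathway both tryptophan-converting enzymes fell. CYP79B2 (AT4G39950; chromosome 4, 18525042 to 18527602, plus strand, 3 exon blocks) had 4.02 and 3.88 CPM in the libraries labelled plt1 plt2, against 5.92 and 5.06 CPM in those labelled wild type. The labels do not overlap, but the log2 fold change of -0.47 ± 0.13 was close to the threshold (edgeR adjusted p = 0.0467). It was no longer called by DESeq2 (adjusted p = 0.101), nor with wild type 1 (0.276) or wild type 2 (0.0729) left out.

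CYP79B3 (AT2G22330; chromosome 2, 9488413 to 9491404, plus strand, 2 exon blocks), the second enzyme of the same step, had 0.978 and 1.01 CPM in the libraries labelled plt1 plt2, against 2.67 and 2.69 CPM in those labelled wild type. The labels do not overlap (log2 fold change -1.43 ± 0.20, edgeR adjusted p = 0.00112). Per length, CYP79B2 exceeded CYP79B3 by 4.31 and 4.04 times in the libraries labelled plt1 plt2, against 2.33 and 1.97 times in those labelled wild type. The ratio was higher in both libraries labelled plt1 plt2 than in either labelled wild type; whether the genes differ in fold change was not tested. Together the pair came to 4.02 and 4.03 TPM in the libraries labelled plt1 plt2, against 6.74 and 6.05 TPM in those labelled wild type.

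CYP83B1 (AT4G31500; chromosome 4, 15273410 to 15275404, minus strand, 2 exon blocks), the enzyme that commits the aldoxime, had 29.4 and 28.3 CPM in the libraries labelled plt1 plt2, against 48.4 and 44.7 CPM in those labelled wild type. The level was 1.61-fold lower (log2 fold change -0.69 ± 0.06, edgeR adjusted p = 3.68e-05), with no overlap and no library that decided the call. SUR1 (AT2G20610; chromosome 2, 8877887 to 8880440, minus strand, 6 exon blocks) had 30.8 and 29.4 CPM in the libraries labelled plt1 plt2, against 37.8 and 36.1 CPM in those labelled wild type. It was 1.23-fold lower (log2 fold change -0.30 ± 0.05, adjusted p = 0.00601), and it was not called with wild type 1 left out (adjusted p = 0.0577).

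Of the last core steps, 1 gene was called; whether the pair differ in fold change was not tested. UGT74B1 (AT1G24100; chromosome 1, 8525334 to 8527087, minus strand, 2 exon blocks), the glucosyltransferase, had 20.6 and 18.9 CPM in the libraries labelled plt1 plt2, against 22.3 and 21.6 CPM in those labelled wild type. The values do not overlap but lie close, and the log2 fold change of -0.15 ± 0.07 was not called (edgeR adjusted p = 0.179). SOT16 (AT1G74100; chromosome 1, 27864345 to 27865694, minus strand, 1 exon block), the sulfotransferase that prefers the indole precursor, had 36.3 and 38.2 CPM in the libraries labelled plt1 plt2, against 49.6 and 49.4 CPM in those labelled wild type. It was 1.33-fold lower (log2 fold change -0.41 ± 0.05, adjusted p = 0.000434) and was called without each library in turn.

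CYP81F4 (AT4G37410; chromosome 4, 17590772 to 17592920, plus strand, 2 exon blocks), which leads to the methoxylated form of the indole nitrogen, fell most among the enzymes. It had 0.615 and 0.696 CPM in the libraries labelled plt1 plt2, from 39 and 38 reads, against 3.32 and 3.48 CPM in those labelled wild type, from 194 and 198 reads. The labels are far apart, and the level was 5.19-fold lower (log2 fold change -2.38 ± 0.21, edgeR adjusted p = 4.86e-05). AT4G37409, on the other strand, covers 2140 bases of the gene and had no row of counts. The use of strand in counting was not given in the sources used here. Whether reads of AT4G37409 were counted for CYP81F4 therefore cannot be told. Among the 10, CYP81F4 alone overlaps another annotated gene.

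**Figure D3:**
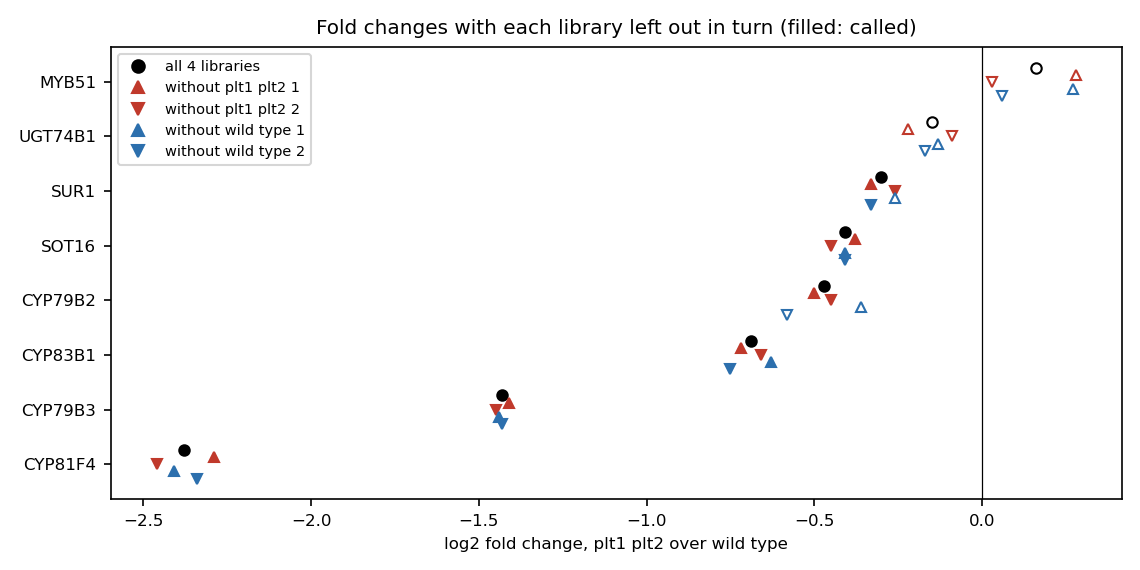
Log2 fold changes (libraries labelled plt1 plt2 over those labelled wild type) of 8 of the genes with all 4 libraries and with each library left out in turn; filled symbols mark calls at an adjusted p below 0.05. CYP79B2 lost its call without either library labelled wild type and SUR1 without wild type 1, and no direction changed among these 8.

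Compared per length, the order of the 10 levels differed between the labels. In the libraries labelled plt1 plt2 the mean TPM ran SOT16 (48.5), SUR1 (28.2), CYP83B1 (26.7), UGT74B1 (20.7), MYB51 (5.17), CYP79B2 (3.25), CYP79B3 (0.778) and CYP81F4 (0.669), with MYB34 and MYB122 at 0. In those labelled wild type it ran SOT16 (62.3), CYP83B1 (41.6), SUR1 (33.5), UGT74B1 (22.3), MYB34 (5.09), MYB51 (4.45), CYP79B2 (4.37), CYP81F4 (3.35), CYP79B3 (2.03) and MYB122 (0.00932). Neighbours in these orders had separate ranges, except MYB34 with MYB51 and MYB51 with CYP79B2 in the libraries labelled wild type and the genes at 0 in those labelled plt1 plt2. CYP83B1 changed places with SUR1, and CYP79B3 with CYP81F4, though no order was tested. The second exchange rests on few reads in the libraries labelled plt1 plt2 (62 and 55 for CYP79B3, 39 and 38 for CYP81F4). Among all loci with a length, SOT16 stood at the 81.3 percentile of TPM in the libraries labelled plt1 plt2 and the 86.1 percentile in those labelled wild type, and CYP83B1 at the 67.7 and the 78.9 percentile. Transcripts of the core enzymes were thus several times more abundant than those of the entry enzymes under both labels.

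The rest of the pathway was followed through 6 lists, with 61 of 89 further loci tested. Counts of calls in these lists stand beside 5.86% lower and 4.63% higher among all genes tested, and no list was tested as a set. For 16 loci the table held no row, and they are not analysed here. Of the 13 other indole glucosinolate enzymes tested, 5 fell and 1 rose, with a median log2 fold change of -0.20. GSTF9, a glutathione transferase of the conjugation step, had 39.5 and 36.9 CPM in the libraries labelled plt1 plt2, against 100.4 and 96.2 CPM in those labelled wild type (log2 fold change -1.36 ± 0.05, edgeR adjusted p = 2.10e-07). Its tandem neighbour GSTF10 (-0.20 ± 0.04) and the peptidase GGP1 (-0.21 ± 0.05), both named after their values were seen, also fell, by much less. Both calls were lost with wild type 1 left out (adjusted p = 0.0733 for GSTF10 and 0.126 for GGP1) or wild type 2 (0.0702 and 0.0775), and that of GGP1 also without plt1 plt2 1 (0.0767).

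Ring modification genes went both ways. CYP81F3, 2 genes away from CYP81F4 on chromosome 4, fell (16.8 and 12.4 CPM in the libraries labelled plt1 plt2, against 22.6 and 22.7 CPM in those labelled wild type; log2 fold change -0.63 ± 0.11, edgeR adjusted p = 0.00494). IGMT5, the methyltransferase that acts with CYP81F4, had 54.4 and 49.3 CPM in the libraries labelled plt1 plt2, against 73.5 and 74.4 CPM in those labelled wild type (-0.51 ± 0.05, adjusted p = 0.000181), and overlaps a gene on the other strand. IGMT4, of a separate tandem cluster of methyltransferases, rose to 8.07 and 7.05 CPM in the libraries labelled plt1 plt2, against 4.62 and 4.78 CPM in those labelled wild type (0.69 ± 0.12, adjusted p = 0.00389). Its cluster neighbours IGMT2 and IGMT3 share 69.0% and 91.8% of their exon bases with near copies, so their counts are uncertain. IGMT4 is among the loci that IGMT3 matched, though 0% of its own exon bases matched elsewhere. Whether IGMT4 shares reads with IGMT3 was not tested.

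**Figure D4:**
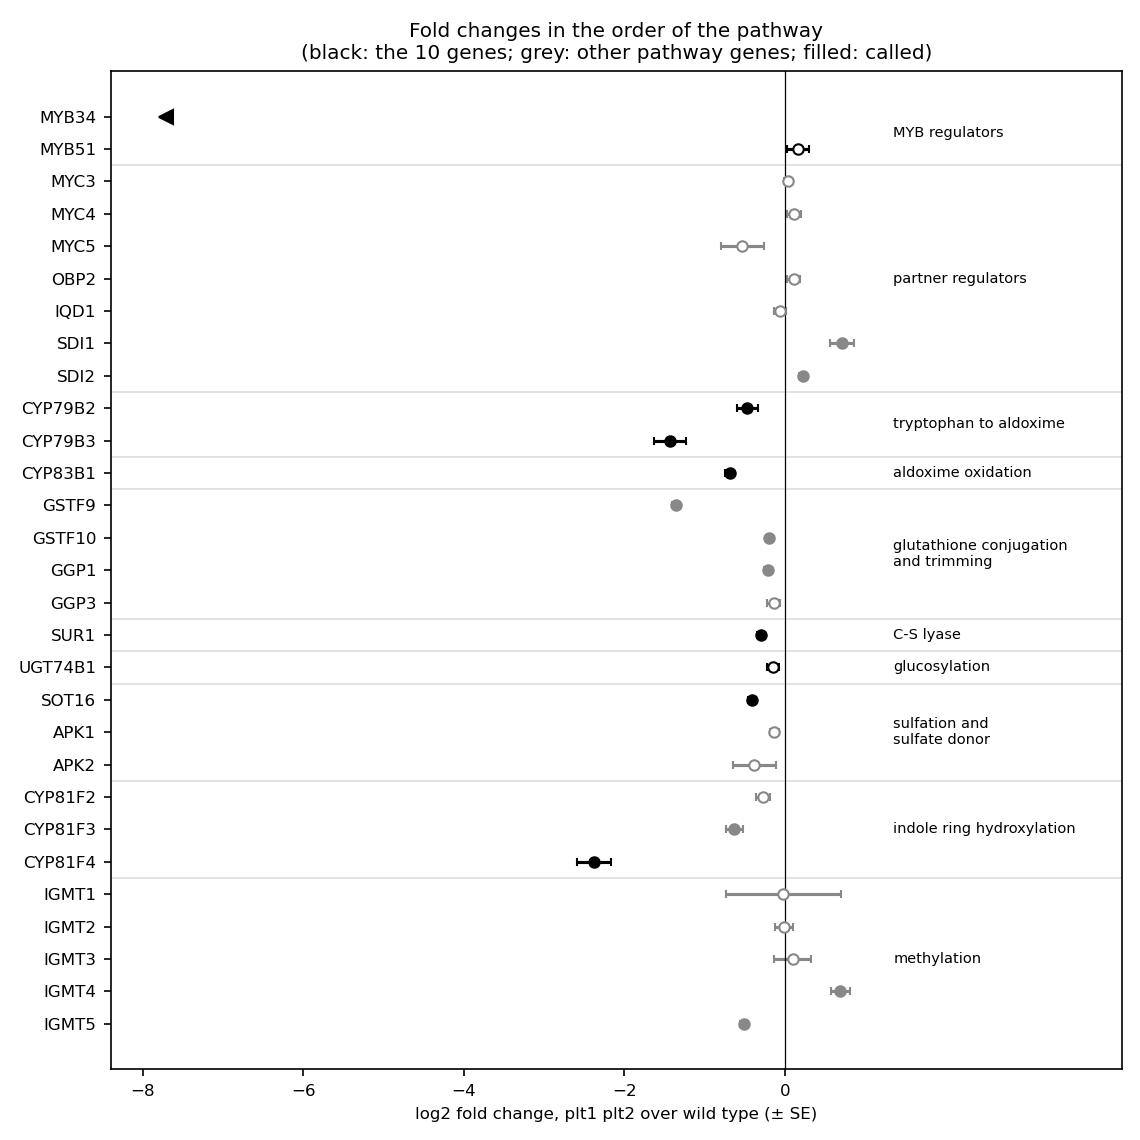
Log2 fold changes (libraries labelled plt1 plt2 over those labelled wild type; bars, SE) of pathway genes in the order of their steps; black, the 10 genes; grey, other genes of the lists; filled, called at an adjusted p below 0.05. MYB34 is drawn as a triangle at its bound of -7.71, and MYB122 was not tested. GSTF9, CYP79B3 and CYP81F4 lie farthest to the left among the enzymes.

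Of 7 tested regulators that act beside the MYB factors, 2 rose and 0 fell (0 also at an unadjusted p below 0.05 and by DESeq2), with a median of 0.11. MYC2, also listed, had no row and is not covered by these counts. SDI1, a repressor of glucosinolate synthesis induced when sulfur is short, had 5.66 and 4.61 CPM in the libraries labelled plt1 plt2, against 3.16 and 3.11 CPM in those labelled wild type (log2 fold change 0.71 ± 0.15, edgeR adjusted p = 0.0115). Its relative SDI2 rose by 0.23 ± 0.05 on the log2 scale (adjusted p = 0.0165). The SDI1 call was lost without wild type 1 (adjusted p = 0.0659) or wild type 2 (0.0721), and that of SDI2 without wild type 1 (0.127).

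The aliphatic branch, which makes glucosinolates from methionine, had 26 loci listed, 15 with a row and 8 past the filter. MYB28, MYB29, MYB76, BCAT4, BAT5, CYP79F1 and CYP83A1 were among those without a row. MAM1, MAM3 and CYP79F2 were among those removed by the filter, with at most 3 reads in a library. The calls and the median therefore cover none of these genes. Of the 8, 1 was lower and 0 higher (0 also at an unadjusted p below 0.05 and by DESeq2; median -0.05). The lower one was the sulfotransferase gene SOT17, with 2.37 and 1.70 CPM in the libraries labelled plt1 plt2, against 3.78 and 3.55 CPM in those labelled wild type (log2 fold change -0.84 ± 0.18, edgeR adjusted p = 0.0158); the call ended without wild type 1 (0.101) or wild type 2 (0.0666). SOT18, which lies 151 bases from SOT16 on the opposite strand, had 5.03 and 5.60 CPM in the libraries labelled plt1 plt2, against 5.44 and 5.24 CPM in those labelled wild type, overlapping and not called (adjusted p = 0.980). Both SOT17 and SOT18 hold ACCAAC in their promoter windows.

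Transport and breakdown genes moved in both directions, 2 higher and 5 lower of 13 tested (median -0.09). The root beta-glucosidase BGLU21 fell to 56.8 and 53.8 CPM in the libraries labelled plt1 plt2, against 136 and 135 CPM in those labelled wild type (log2 fold change -1.29 ± 0.05, edgeR adjusted p = 1.62e-07), with 16.9% of its exon bases in a near copy. PYK10, the main beta-glucosidase of endoplasmic reticulum bodies and able to cleave indole glucosinolates, had 1031 and 1018 CPM in the libraries labelled plt1 plt2, against 1466 and 1538 CPM in those labelled wild type (-0.55 ± 0.04); it is named after its values were seen. NSP1, which directs breakdown toward nitriles, fell by 0.81 ± 0.06 on the log2 scale, with 57.0% of its exon bases in a near copy. BGLU30 and BGLU28, beta-glucosidases linked to glucosinolate turnover under sulfur shortage, rose by 1.37 ± 0.06 and 0.91 ± 0.06, BGLU30 to 204 and 182 CPM in the libraries labelled plt1 plt2, against 73.7 and 76.1 CPM in those labelled wild type.

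The list drawn up for other uses of indole-3-acetaldoxime had 3 genes higher and 1 lower of 9 tested (median 0.12). Whether each listed gene, NIT4 included, acts in such a use was not tested. The camalexin enzyme PAD3 had 12.8 and 11.5 CPM in the libraries labelled plt1 plt2, against 9.44 and 9.11 CPM in those labelled wild type (log2 fold change 0.39 ± 0.09, edgeR adjusted p = 0.0194), and FOX1, an oxidase of the indole cyanohydrin branch, rose by 0.96 ± 0.24. The nitrilase genes NIT4 (0.22 ± 0.05) and NIT3 (-0.20 ± 0.05) were called in opposite directions. All 4 calls were lost without wild type 1 (adjusted p = 0.0777 for PAD3, 0.0917 for FOX1, 0.173 for NIT4 and 0.0528 for NIT3). Those of PAD3 (0.124), FOX1 (0.200) and NIT3 (0.242) also ended without wild type 2, and those of FOX1 (0.0730) and NIT3 (0.0584) without plt1 plt2 1; DESeq2 called none but PAD3 of these 4. Of the 11 tryptophan supply genes 3 fell slightly and 0 rose (0 also at an unadjusted p below 0.05 and by DESeq2), IGPS (-0.23), TRP1 (-0.23) and TSA1 (-0.17), and all 3 calls ended without wild type 1 (adjusted p of 0.0554, 0.116 and 0.0963) and without wild type 2 (0.0813, 0.0962 and 0.194). DESeq2 called 1 of these 3, IGPS, with TRP1 at 0.0584 and TSA1 at 0.0618. The TRP1 call also ended without plt1 plt2 2 (0.0896), and that of TSA1 with plt1 plt2 1 left out (0.0796) and in the fit with replicate block (0.0641).

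**Figure D5:**
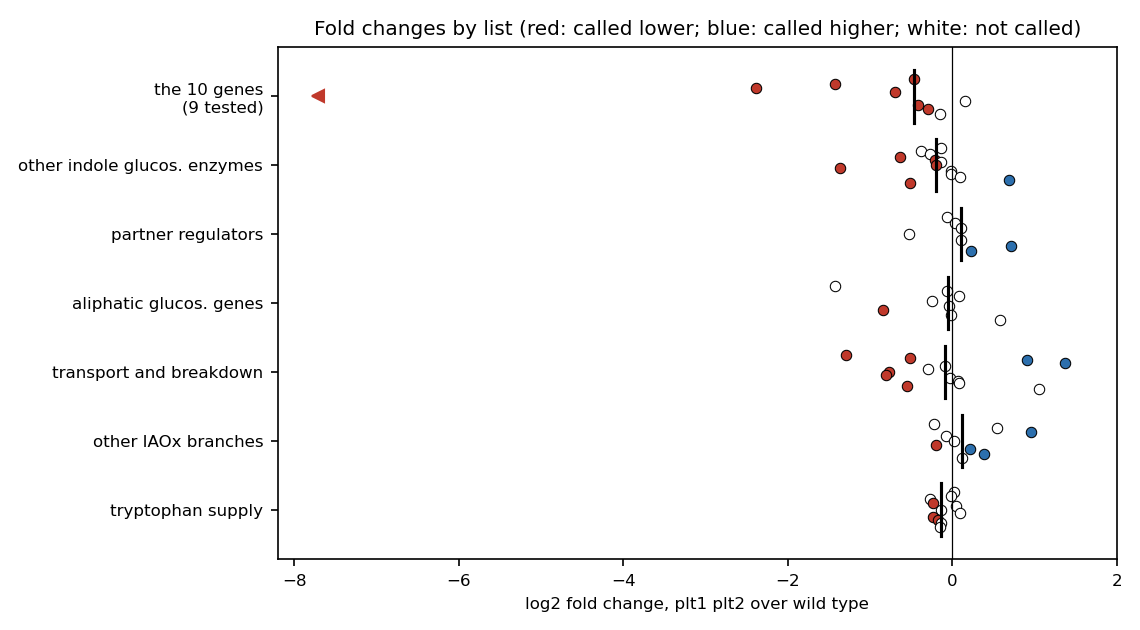
Log2 fold changes (libraries labelled plt1 plt2 over those labelled wild type) of all tested genes of each list, 1 point per gene, with the list median as a line; red, called lower; blue, called higher; white, not called; the triangle is MYB34 at its bound. The median of the 9 tested members, which were chosen with these fold changes known, is -0.47; the medians of the 6 other pathway lists lie between -0.20 and 0.12, and marker lists are not drawn.

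Among the marker lists of other cell types, only root cap and phloem held called genes, all lower (5.86% of all genes tested were called lower). All 4 root cap markers fell (FEZ, SMB, BRN1 and BRN2; summed 26.5 and 37.5 CPM in the libraries labelled plt1 plt2, against 62.4 and 57.6 CPM in those labelled wild type). Of 4 phloem markers SUC2, SEOR1 and SEOR2 fell (3 of 4), and the sum of the list was 4.73 and 4.61 CPM in the libraries labelled plt1 plt2, against 9.34 and 8.11 CPM in those labelled wild type. DESeq2 called 3 of the root cap and 2 of the phloem markers lower. The SUC2 call (adjusted p = 0.0482) was lost by DESeq2 (0.120), with a replicate block (0.0595), and with wild type 1 (0.256), wild type 2 (0.111) or plt1 plt2 2 (0.0512) left out. None of the 3 tested green tissue markers was called (median 0.09), nor was TGG1, the 1 tested myrosin cell marker (log2 fold change 1.05 ± 0.39, edgeR adjusted p = 0.128). No root cap or phloem marker was at 0, and their part in the levels of the glucosinolate genes was not tested.

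The chromosomal neighbours of the 10 genes were set beside all genes tested, of which 5.86% were called lower and 4.63% higher. Of 38 different protein-coding genes within 2 places of a member, 22 were tested, 2 fell and 1 rose. The 2 lower ones were SOT17, 7144 bases from MYB51, and CYP81F3, 4329 bases from CYP81F4. The higher one was AT4G31520 near CYP83B1 (log2 fold change 0.48 ± 0.11, edgeR adjusted p = 0.0193, and 0.134 without the library labelled wild type 2). Beside MYB34, BASL had 0 and 0 reads in the libraries labelled plt1 plt2, against 0 and 1 in those labelled wild type, and RUG3 had 1472 and 1263 reads in the libraries labelled plt1 plt2, against 1389 and 1369 in those labelled wild type. MYB122 and SOT16 lie in the same stretch of chromosome 1, with SOT18 between them.

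Genes with the pattern nearest to MYB34, CYP79B2 and CYP79B3 were sought among 18331 others by the Euclidean distance of log2 CPM centred over the 4 libraries. Nearest to MYB34 were AT1G06957 (distance 0.443), YUC3 (1.01) and AT1G26680 (1.72), all without a read in either library labelled plt1 plt2; YUC3 had 173 and 131 reads in those labelled wild type. Nearest to CYP79B2 in edgeR CPM were MYB66 (0.0489), an epidermal cell fate factor of roots, the phloem sucrose transporter gene SUC2 (0.0628) and the DELLA gene RGL1 (0.0675). Nearest to CYP79B3 were CYSD2, a cysteine synthase homologue (0.0243; 13.9 and 14.4 CPM in the libraries labelled plt1 plt2, against 36.5 and 37.4 CPM in those labelled wild type), the bHLH gene SCRM2 (0.0686) and AT5G23820 (0.0767). MYB66 was not called (adjusted p = 0.163); the calls of SUC2 (0.0482) and RGL1 (0.0374) were lost by DESeq2 (0.120 and 0.0569) and without wild type 1 (0.256 and 0.259).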

How the data were processed

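RNA-seq counts of 4 callus libraries, 2 per label, were used. Values are unnormalised read counts per locus, as deposited. The build TAIR10 and the tools STAR 2.7.2b, Trim Galore 0.5.0 and DESeq2 are named per the submitters' processing notes, while the counter, annotation and strand setting are not given in the sources used here. The table has 0 columns of other samples.

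Tests used R 4.3.3 and edgeR 4.0.16, with filterByExpr, TMM factors and a quasi-likelihood fit (glmQLFit, glmQLFTest) on genotype alone, Benjamini-Hochberg adjustment over 19325 genes, calls at an adjusted p below 0.05. The test was run on simulated data first. The standard error (SE) is the log2 fold change divided by the square root of F. CPM used TMM-scaled totals; TPM used RefSeq TAIR10.1 exon lengths, and 167 loci had none. Coordinates and promoters are from TAIR10.1, matched by locus code. Near copies were sought with megablast (95% identity, 50 bases).

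The members and lists were chosen with earlier results of these data known. Named are all members; up to 4 called genes per list with the largest change; the 3 nearest patterns; and neighbours. DESeq2 1.42.0, its size factors, other filters, a replicate block, a test against a fold of 1.5 and leaving out each library were the alternatives.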

Additional observations from a re-analysis of the deposited data

How the results depend on the processing

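No member changed direction under any alternative run. The 7 lower and 0 higher members were the counts with DESeq2 size factors, no filter on low counts, a mean of 50 or more reads and a replicate block; DESeq2 gave 6 lower, and leaving out each library gave 5 to 7 lower. Against a fold of 1.5, 3 members were lower (MYB34, CYP79B3 and CYP81F4), of the other pathway genes 2 were higher and 3 lower in place of 8 and 15, and of all genes 44 were higher and 154 lower in place of 894 and 1133; this test asks for a larger change. Leaving out each library gave 433 to 1275 of all genes higher and 606 to 1751 lower, with 3 to 8 and 7 to 17 among the other pathway genes. Of all genes, without wild type 1 the counts were 531 higher and 606 lower, without wild type 2 433 and 635, and without plt1 plt2 1 1275 and 1751. A fit with 3 libraries takes the lone sample to vary like the others. SOT18, not called, changed sign without wild type 1 (0.02) and without plt1 plt2 1 (0.07), and the cause was not tested.

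The labels number the libraries 1 and 2 in both groups, but nothing says that a number pairs them; same-numbered libraries did not deviate together (correlation of deviations -0.09). With a replicate block 828 genes were higher and 1081 lower, the members gave 7 lower and the other pathway genes 8 higher and 15 lower. Depth limits MYB122, with 1 read in all.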

Other observations

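Genes linked to sulfur status were looked at after SDI1, SDI2 and BGLU28 had been seen to rise, so this group was chosen after its values were seen and carries no test of its own. Of 13 such genes tested, 6 were called higher in the libraries labelled plt1 plt2 and 0 lower by edgeR, with 7 not called (1 lower at an unadjusted p below 0.05, 0 lower by DESeq2). Without the 3 genes that prompted the group, 3 of 10 were called higher, and 4.63% of all genes tested were. BGLU30, also higher and linked above to sulfur shortage, was not part of this group. LSU1, a small protein gene that responds to low sulfur, had 23.0 and 16.3 CPM in the libraries labelled plt1 plt2, against 12.1 and 11.5 CPM in those labelled wild type (log2 fold change 0.74 ± 0.13). LSU2 (0.30 ± 0.08) and the serine hydroxymethyltransferase gene SHM7 (0.28 ± 0.04) were higher as well, and the LSU2 call ended without wild type 1 (adjusted p = 0.134), wild type 2 (0.110) or plt1 plt2 1 (0.108). The APS reductase genes APR1 (-0.03), APR2 (0.05) and APR3 (-0.03), which act in sulfate reduction, were not called, nor were the sulfate transporter genes SULTR1;1 (-1.06, from 17 and 18 reads in the libraries labelled plt1 plt2, against 40 and 32 reads in those labelled wild type), SULTR1;2 (0.21) and SULTR4;2 (0.13). The gamma-glutamyl cyclotransferase gene GGCT2;1 of this group was not called either (0.09, edgeR adjusted p = 0.398), and its labels overlap.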
